A study of Caenorhabditis elegans with 2 samples.

Results

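LIN-13 peaks at tRNA, snoRNA and snRNA genes were taken from the reproducible peak list of a ChIP-seq experiment in Caenorhabditis elegans. A peak was a member when its summit, the position of highest enrichment, lay within 500 bp of the annotated 5′ end of a gene of one of these 3 classes on a nuclear chromosome. By this rule 214 of the 2333 reproducible peaks (9.17%) were members. Of these, 119 lay near a tRNA gene, 76 near a snoRNA gene and 22 near an snRNA gene, with 1 peak shared by each pair of classes. They fell near 236 of the 1087 annotated genes of the 3 classes.

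The experiment was a ChIP-seq of LIN-13, a zinc finger protein of the synMuv B group that is known for repressing germline genes and vulval fate in somatic cells. The worms were of strain OP49, in which the transgene wgIs49 adds LIN-13 tagged with TY1, EGFP and FLAG to an unc-119(ed3) background, and the tagged protein was immunoprecipitated from whole L1 larvae of mixed sex. All samples formed 1 group of 2 biological replicates, with no other genotype, stage or treatment to set them against, so every comparison below is between classes of genomic site within 1 experiment and none is a test of a condition. The tag was on an integrated transgene, and whole larvae mix all tissues, so the cells in which a site was bound are not known. The depth of the libraries is unknown, because the deposited lists hold no read counts. A share of genes with a peak is given with its 95% exact binomial (Clopper-Pearson) interval, which covers counting error only.

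The 3 classes are short non-coding genes read by different promoters. RNA polymerase III makes tRNAs from promoters inside the gene, the A box and the B box, which bind the factor TFIIIC. The snRNAs of the spliceosome and the spliced leader RNAs of nematodes depend on a proximal sequence element upstream of the gene, bound by the SNAP complex. The snoRNAs, which guide chemical modification of ribosomal RNA, are often cut from introns of host genes and in nematodes can also have promoters of their own.

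Sequences at some of these genes are printed from RefSeq's WBcel235 assembly (the ce11 build). Capitals mark words in the sequence and not summits. The first set holds 80 bases upstream and the first 10 bases of snRNA genes, with the letters AACCCG in capitals, a word found upstream of 43 of the 129 snRNA genes and chosen after the sequences were seen. It is shown for the SL2 spliced leader genes sls-2.1, sls-2.2 and sls-2.8, for C52E4.8, W05B2.8 and F38E11.10, for the U1 snRNA genes sup-39 and sup-6, and for sls-2.12, which had the word and no reproducible peak. The windows are, in the order of the lines, chrII:5844785-5844874 on the plus strand, chrII:5543518-5543607 on the plus strand, chrIII:12250385-12250474 on the plus strand, chrV:11980038-11980127 on the plus strand, chrIII:10989599-10989688 on the plus strand, chrIV:9444562-9444651 on the plus strand, chrII:6968549-6968638 on the minus strand, chrII:12944958-12945047 on the minus strand and chrIV:5261833-5261922 on the plus strand.
sls-2.1: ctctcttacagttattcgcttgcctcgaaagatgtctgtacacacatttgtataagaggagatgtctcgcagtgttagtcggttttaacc
sls-2.2: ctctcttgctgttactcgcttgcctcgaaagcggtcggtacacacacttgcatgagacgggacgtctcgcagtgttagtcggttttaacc
sls-2.8: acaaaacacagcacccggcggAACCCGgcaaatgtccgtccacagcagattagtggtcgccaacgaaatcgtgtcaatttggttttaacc
C52E4.8: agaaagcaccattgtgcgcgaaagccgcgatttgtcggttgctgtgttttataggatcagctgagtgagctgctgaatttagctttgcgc
W05B2.8: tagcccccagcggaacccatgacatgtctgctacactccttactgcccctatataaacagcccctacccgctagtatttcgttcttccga
F38E11.10: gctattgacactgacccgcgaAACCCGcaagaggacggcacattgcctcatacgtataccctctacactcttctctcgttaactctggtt
sup-39: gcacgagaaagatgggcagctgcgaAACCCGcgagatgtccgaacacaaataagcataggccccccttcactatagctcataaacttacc
sup-6: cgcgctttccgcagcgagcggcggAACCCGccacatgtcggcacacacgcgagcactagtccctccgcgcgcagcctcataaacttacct
sls-2.12: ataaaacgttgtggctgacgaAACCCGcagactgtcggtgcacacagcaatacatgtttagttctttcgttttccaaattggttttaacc

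The word began 59 bases before the 5′ end of sls-2.8, F38E11.10 and sls-2.12, 55 before that of sup-39 and 56 before that of sup-6. These letters do not occur in the windows of sls-2.1, sls-2.2, C52E4.8 and W05B2.8. The next set gives 100 bases upstream and the first 10 bases of 3 snoRNA genes with a peak, with the same word in capitals. They were taken from the 5 strongest snoRNA peaks with the word. Their windows are chrII:15025884-15025993 on the minus strand, chrV:8228960-8229069 on the minus strand and chrV:12491180-12491289 on the plus strand.
Y53F4B.47: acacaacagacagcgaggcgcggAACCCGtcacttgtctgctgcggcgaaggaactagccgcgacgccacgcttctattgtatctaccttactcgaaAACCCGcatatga
C16D9.11: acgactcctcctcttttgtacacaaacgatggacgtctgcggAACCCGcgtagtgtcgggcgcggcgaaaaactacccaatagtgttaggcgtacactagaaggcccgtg
W04D2.7: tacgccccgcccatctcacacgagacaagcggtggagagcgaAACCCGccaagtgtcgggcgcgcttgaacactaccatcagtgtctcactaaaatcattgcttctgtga

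In Y53F4B.47 the first copy began 77 bases upstream, and in both other snoRNA genes the word began 58 bases upstream. In the genes of those 5 peaks that are not printed it began 61 and 71 bases upstream. The last set gives 4 whole tRNA genes among those with the strongest summits inside the gene, with the letters GTTCNA of the B box core in capitals. C04A2.t1, a leucine tRNA, spans chrII:6853204-6853285 on the plus strand; C33G3.t2, a lysine tRNA, spans chrX:14063946-14064018 on the minus strand; C43G2.t1, a leucine tRNA, spans chrIV:6556818-6556901 on the plus strand; and R04D3.t2, a valine tRNA, spans chrX:13307034-13307106 on the plus strand.
C04A2.t1: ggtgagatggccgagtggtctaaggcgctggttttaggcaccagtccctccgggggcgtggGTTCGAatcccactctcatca
C33G3.t2: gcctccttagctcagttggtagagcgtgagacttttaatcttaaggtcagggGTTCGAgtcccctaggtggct
C43G2.t1: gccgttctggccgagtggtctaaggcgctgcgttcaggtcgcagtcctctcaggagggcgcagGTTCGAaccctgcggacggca
R04D3.t2: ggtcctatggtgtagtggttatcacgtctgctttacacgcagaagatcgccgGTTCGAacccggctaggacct

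The B box core began 61 bases into C04A2.t1, where the summit lay 64 bases from the 5′ end, and 52 bases into R04D3.t2, where the summit lay 53 bases in. It also began 52 bases into C33G3.t2, where the summit lay 23 bases in, and 63 bases into C43G2.t1, where the summit lay 22 bases in. The summit was thus near the B box core in 2 of these 4 genes and nearer the 5′ end in the others. For a gene, position 0 is its first base.

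All 3 classes had reproducible LIN-13 peaks at a minority of their genes. A peak lay near 139 of 612 tRNA genes (22.7%, interval 19.5 to 26.2%), near 78 of 346 snoRNA genes (22.5%, 18.3 to 27.3%) and near 19 of 129 snRNA genes (14.7%, 9.11 to 22.0%). By the same rule 1723 of 19973 protein-coding genes (8.63%) and 19 of 261 microRNA genes (7.28%) had one. The intervals of tRNA and snoRNA genes lay above the protein-coding share, and that of snRNA genes began just above it. Genes that share a peak are not independent, which these intervals leave out, and the 139 tRNA genes rest on 119 peaks. When a summit counted only for the nearest 5′ end of any gene, 116 tRNA, 63 snoRNA and 15 snRNA genes had one. Protein-coding genes were not recounted that way, and no difference from them is drawn for snRNA genes. A protein-coding gene often has several annotated 5′ ends, which gives it more chances to meet the rule than a small RNA gene has. The 500-bp windows of all 3 classes together cover 0.982% of the nuclear genome and held 9.17% of the peaks. For tRNA genes alone the windows cover 0.533% and held 5.10%, for snoRNA genes 0.332% and 3.26%, and for snRNA genes 0.122% and 0.943%.

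**Figure D1:**
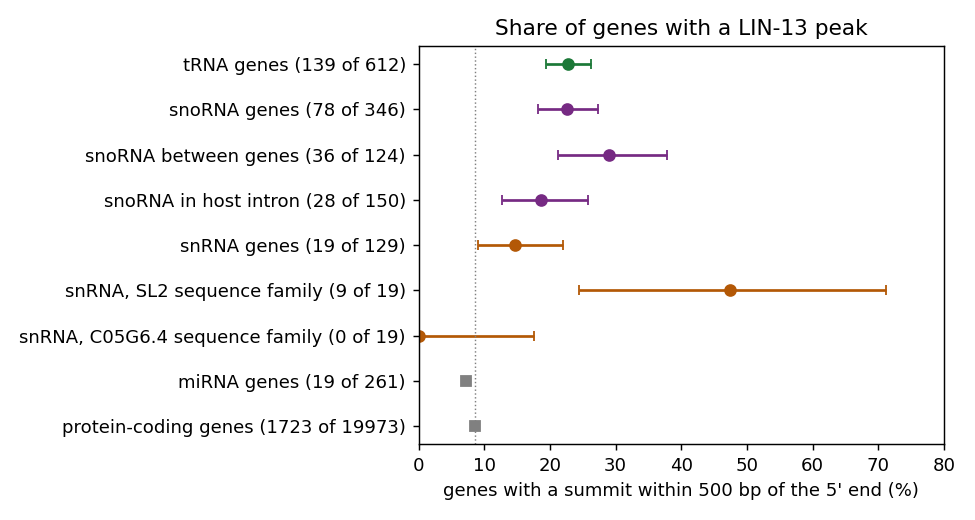
Share of genes with a reproducible summit within 500 bp of the 5′ end, on the x axis in percent, for small RNA gene sets (coloured points with 95% exact binomial intervals) and for microRNA and protein-coding genes (grey squares; the dotted line marks the protein-coding share). tRNA and snoRNA genes lie at 22.7% and 22.5%, the SL2 family at 47.4% and protein-coding genes at 8.63%.

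In the deeper list of 30000 pooled calls snRNA genes again had the lowest share of the 3 classes. That list was made without the reproducibility filter and also holds the reproducible peaks, so it is not separate from them. The shares of tRNA and snoRNA genes, about equal in the reproducible list, differed more there. At least 1 such call lay near 400 tRNA genes (65.4%), 183 snoRNA genes (52.9%) and 57 snRNA genes (44.2%), against 7841 protein-coding genes (39.3%).

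The 3 classes differed in where the summit lay. At tRNA genes the median summit was 23 bp downstream of the 5′ end (quartiles −23 and 47.5), within a gene of median length 73 bp. At snoRNA genes it was 59 bp upstream (−106 and −22), and at snRNA genes 37 bp upstream (−58.5 and 135). Of 119 tRNA peaks, 72 had the summit inside the gene, 37 upstream and 10 past the 3′ end. Of 76 snoRNA peaks, 67 had it upstream, 8 inside and 1 past the 3′ end. Of 22 snRNA peaks, 13 had it upstream, 2 inside and 7 past the 3′ end. Distances were small in most cases. The summit lay within 100 bp of a 5′ end of the class at 110 tRNA, 55 snoRNA and 15 snRNA peaks.

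**Figure D2:**
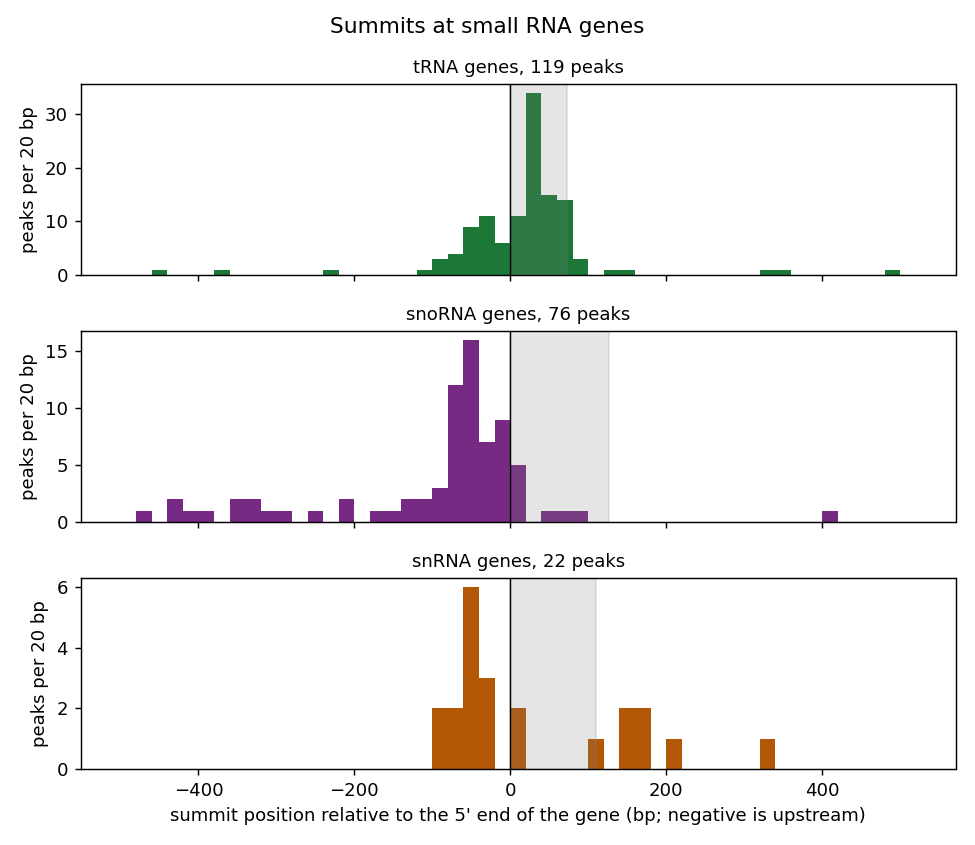
Number of peaks per 20 bp (y axis) against the position of the summit relative to the 5′ end of the nearest gene of the class (x axis, bp, negative values upstream), for tRNA, snoRNA and snRNA genes from top to bottom. The grey band is the median gene length (73, 126 and 110 bp). tRNA summits crowd within the gene, snoRNA summits upstream of it, and snRNA summits lie upstream with a smaller group past the 3′ end.

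The replicates bear on these positions. For the peaks with a call within 100 bp in a replicate's own list, the summits of that replicate had a median of 15 bp at tRNA genes in replicate 1 (109 peaks) and 25 bp in replicate 2 (119 peaks). At snoRNA genes the medians were −59 bp in replicate 1 (75 peaks) and −50 bp in replicate 2 (74 peaks), and at snRNA genes −37 bp (22 peaks) and −45 bp (20 peaks). The summits of the 2 replicates of a peak lay a median of 23 bp apart at tRNA genes, 17 bp at snoRNA genes and 9 bp at snRNA genes, against 19.5 bp at the 2119 other peaks. In both replicates the tRNA median therefore lay downstream of the 5′ end and the snoRNA and snRNA medians upstream. Within tRNA genes the position is less certain, because by replicate 1's summits 52 of 109 summits lay inside the gene and 47 upstream, against 71 of 119 inside and 38 upstream in replicate 2. Among replicate 1's own 2333 strongest calls 37 of 83 summits at tRNA genes lay inside the gene and 40 upstream, with a median of 4 bp, so the majority inside the gene was lost there. Among those of replicate 2, 75 of 119 lay inside and 39 upstream, with a median of 24 bp. The summit of a peak is a single base from the authors' caller, so a shift of about 20 bp is near the spread between replicates.

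The pooled calls that were not reproducible had a looser placement. Their median was 25 bp at tRNA genes (257 calls), 9 bp at snoRNA genes (131 calls) and 11 bp at snRNA genes (41 calls). Within 100 bp of a 5′ end lay 59.9% of these calls at tRNA genes, 32.8% at snoRNA genes and 39% at snRNA genes. Of the reproducible peaks, 92.4% at tRNA genes, 72.4% at snoRNA genes and 68.2% at snRNA genes lay that close.

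tRNA peaks had low signal among the reproducible peaks, and snoRNA and snRNA peaks had high signal. Signal is the authors' score per peak, whose scale is not stated, and it ran between 48.2 and 871 over the 2333 peaks. The median pooled signal was 64.2 at tRNA genes, 97.2 at snoRNA genes and 110 at snRNA genes, against 79.8 at the other peaks. On a scale where the strongest peak is at 0% and the weakest at 100%, the median tRNA peak stood at 68.1%, the snoRNA peak at 36.9% and the snRNA peak at 30.3%, against 49.7% for other peaks. Among the 500 strongest peaks were 5 at tRNA genes, 20 at snoRNA genes, 9 at snRNA genes and 466 others. Most member peaks were called in both replicates, namely 109 of 119 at tRNA genes, 73 of 76 at snoRNA genes and 20 of 22 at snRNA genes, against 1986 of 2119 others. Of the tRNA peaks, 72 were among the 2333 strongest calls of replicate 1 and 101 among those of replicate 2. For snoRNA peaks these counts were 66 and 70, and for snRNA peaks 21 and 18. When only the stronger 50% of the reproducible list was kept, 40 of the 139 tRNA genes, 56 of the 78 snoRNA genes and 15 of the 19 snRNA genes still had a peak.

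**Figure D3:**
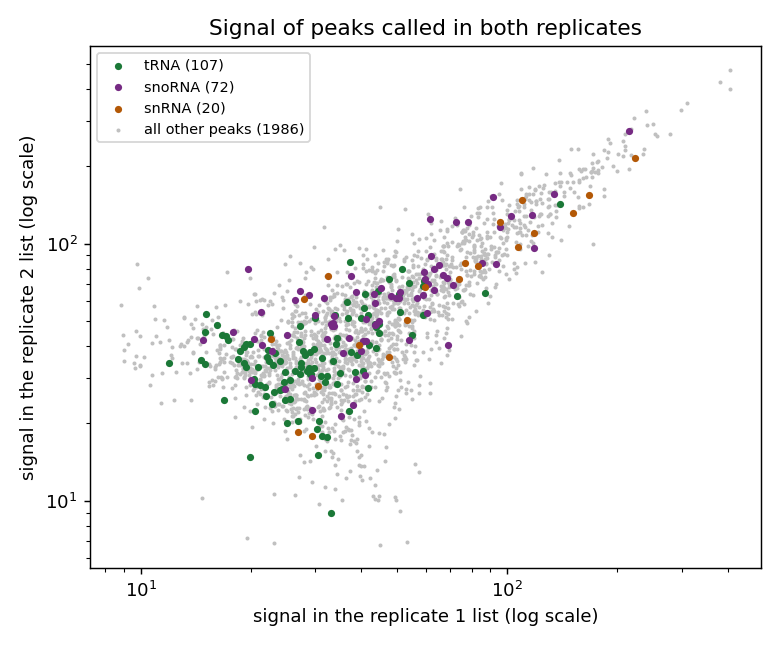
Signal of each peak called in both replicates, replicate 1 on the x axis and replicate 2 on the y axis (both log scales, the authors' score). tRNA peaks (green) gather at low signal, and snoRNA (purple) and snRNA (orange) peaks reach into the strong end among the other 1986 peaks (grey); a peak in 2 classes is drawn once.

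Few of the tRNA peaks lay near a protein-coding promoter. A protein-coding 5′ end lay within 500 bp of the summit for 21 tRNA peaks (17.6%), 32 snoRNA peaks (42.1%) and 4 snRNA peaks (18.2%), against 1290 of the 2119 other peaks (60.9%). The tRNA summits without such a neighbour (98 peaks) had a median of 23 bp, and those with one (21 peaks) 22 bp. At snoRNA genes the medians were −54 bp without a protein-coding neighbour (44 peaks) and −69.5 bp with one (32 peaks).

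tRNA genes with a peak came from every amino acid set. Genes of all 20 standard amino acids and the single selenocysteine tRNA gene, K11H12.t1, had at least 1 peak. K11H12.t1's summit was 232 bp from the 5′ end of the protein-coding gene K11H12.8. Of these 21 sets 17 had a peak when only the stronger 50% of the list was kept, 20 without peaks near protein-coding 5′ ends and 20 in replicate 1 alone. Among amino acids with 12 or more genes the share was highest for valine, with 11 of 31 genes (35.5%, interval 19.2 to 54.6%), and lowest for tryptophan, with 1 of 12 (8.33%, 0.211 to 38.5%). Methionine tRNA genes, which include the initiator, had 2 of 20 (10%, 1.24 to 31.7%), leucine 11 of 39 (28.2%) and glycine, the largest set, 12 of 55 (21.8%). The intervals of valine and tryptophan overlap, as do those of all pairs of amino acids between them, so these counts separate no amino acid from another. The 5 tRNA genes with no amino acid named had none.

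**Figure D4:**
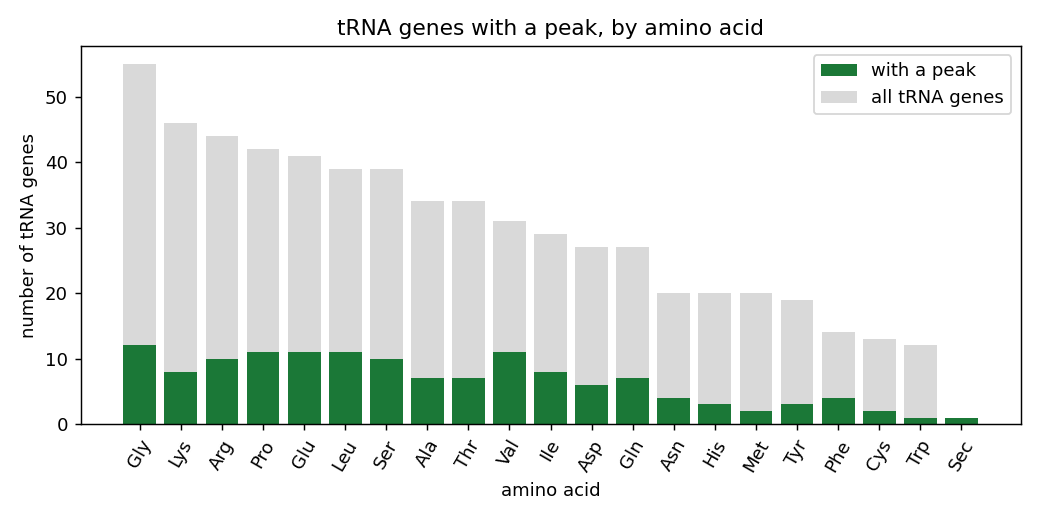
Number of tRNA genes with a peak (green) and of all tRNA genes (grey) by amino acid, ordered by the number of genes. Green bars run between 1 and 12 genes and follow the size of the set.

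Copy number showed no steady trend. Of the tRNA genes whose sequence occurs once in the genome's tRNA set, 23 of 143 (16.1%, interval 10.5 to 23.2%) had a peak. Of those with 2 to 4 identical copies 20 of 67 did (29.9%, 19.3 to 42.3%), of those with 5 to 9 copies 17 of 85 (20%, 12.1 to 30.1%), and of those with 10 or more 79 of 317 (24.9%, 20.3 to 30.1%). Identical genes share their reads where a read does not reach the flanks. The share of 36-base words that occur once in the genome, over 501 bp around the 5′ end, had a median of 89.1% both at tRNA genes with a peak and at those without. No label states the read length, and the part of repeated sequence in these counts was not tested.

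tRNA peaks occurred on every nuclear chromosome. The X chromosome holds 276 of the 612 tRNA genes, and 62 of these (22.5%) had a peak, close to the share of all tRNA genes. The shares ran between 10 of 78 on V (12.8%, interval 6.32 to 22.3%) and 22 of 64 on III (34.4%, 23.0 to 47.3%). Position relative to other genes made little difference, with 72 of 319 tRNA genes between genes (22.6%), 34 of 165 in an intron of the same strand (20.6%) and 31 of 122 in an intron of the opposite strand (25.4%).

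The strongest tRNA peaks did not all lie on the gene. The highest signal, 289 (140 in replicate 1 and 143 in replicate 2), belonged to the arginine tRNA gene C18A11.t2, where the summit was 323 bp downstream of the 5′ end and 4879 bp away from any protein-coding 5′ end. A peak of 159 (87.0 in replicate 1, 64.1 in replicate 2) lay between the divergent genes M02F4.t1 for glycine and M02F4.t2 for glutamate, 30 bp upstream of M02F4.t1 and 87 bp upstream of M02F4.t2. The alanine tRNA gene Y38E10A.t1 had a peak of 139, with the summit 231 bp upstream and 273 bp from the protein-coding 5′ end of Y38E10A.22. The summit lay 43 bp upstream of the asparagine gene F41D9.t3 (138). At the threonine gene W09G10.t3 (137) it lay 55 bp upstream and 282 bp from the protein-coding 5′ end of clec-126. At the glutamate gene C28G1.t1 (119) it lay 95 bp upstream. This last summit was also 2 bp from the 5′ end of the protein-coding gene C28G1.2, and its signal was 37.3 in replicate 1 and 85.2 in replicate 2. Only the leucine gene C04A2.t1 (132) and the lysine gene C33G3.t2 (126) among these 8 peaks had the summit within the gene. The weakest tRNA peak, 48.5 at the proline gene F22B7.t5, had a signal of 20.5 in replicate 1 and 28.4 in replicate 2.

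Neighbouring tRNA genes went with the placement of the summit. At the 100 peaks with a single tRNA gene in reach the median was 24 bp, with 65 summits inside the gene. At the 5 peaks between divergent pairs every summit lay upstream of the nearer gene, at a median of −48 bp, and the median signal was 105 against 63.8 at single genes. The 7 peaks at convergent pairs had a median of −4 bp and the 5 at tandem pairs 22 bp. These groups are small.

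snoRNA genes were grouped by their setting. Of snoRNA genes between other genes 36 of 124 had a peak (29.0%, interval 21.2 to 37.9%), and of those in an intron of a host on the same strand 28 of 150 did (18.7%, 12.8 to 25.8%). Of snoRNA genes in an intron of a gene on the opposite strand 9 of 28 had one (32.1%, 15.9 to 52.4%), and of those overlapping an exon 5 of 44 (11.4%, 3.79 to 24.6%). The intervals of the 2 largest groups overlap. On the X chromosome 1 of 33 snoRNA genes had a peak (3.03%, 0.0767 to 15.8%), the lowest share of any chromosome for this class, against shares between 18.5 and 28.8% on the autosomes. Its interval overlaps those of chromosomes II and III.

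Within host introns the placement went with the distance to the host's 5′ end. Where the snoRNA gene began within 500 bp of the 5′ end of its host, 10 of 34 genes had a peak (29.4%) and the median summit was 347 bp upstream of the snoRNA gene. Every one of those 10 summits was also within 500 bp of the host's own 5′ end, so a peak of the host and one of the snoRNA gene cannot be told apart there. Hosts of 5 of the 10 are rpl or rps genes, which encode ribosomal proteins, as are the hosts of 14 of the 34. Where the snoRNA gene began 500 to 2000 bp from the host's 5′ end, 12 of 61 had a peak (19.7%) at a median of −47 bp, and beyond 2000 bp 6 of 55 did (10.9%) at a median of −57.5 bp. At those distances the median summit lay just upstream of the snoRNA gene itself, but some summits were also near a protein-coding 5′ end. In the hosts cfim-2, C33A12.3 and pcyt-2.1 a summit was 218, 302 and 397 bp from a 5′ end of the host. In the host rfs-1 it was 174 bp upstream of the snoRNA gene and 141 bp from the 5′ end of fbxl-1.

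The strongest snoRNA peak was that of F54E7.10, in an intron of the ribosomal protein gene rps-12, with a pooled signal of 497 (215 in replicate 1, 275 in replicate 2) at rank 13 of all peaks. Its summit was 242 bp upstream of the snoRNA gene and 162 bp from the 5′ end of rps-12, but closer, at 131 bp, to that of ska-3. H06I04.9, in ubl-1, which encodes a ubiquitin-like protein fused to a ribosomal protein, had a signal of 207 (95.4 and 116 in replicates 1 and 2), with the summit 358 bp upstream of the snoRNA gene and 182 bp from the 5′ end of ubl-1. K02F3.15, in the transcription factor gene zip-2, had a signal of 213 and a summit 408 bp downstream of its 5′ end. K07C5.11 lies in nol-56, which encodes a core protein of box C/D snoRNPs, and its peak of 143 lay 389 bp upstream of the snoRNA and 247 bp from the 5′ end of nol-56.

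The other 5 of the 8 strongest snoRNA peaks were at snoRNA genes outside introns, and some also lay near a protein-coding 5′ end. Y53F4B.47 had a signal of 293 (135 in replicate 1, 156 in replicate 2) with the summit 77 bp upstream, at the first base of the first copy of the word AACCCG printed above and 144 bp from the 5′ end of the protein-coding gene cmtr-1. F59C6.15 had 251.2 (117 and 129 in replicates 1 and 2) at 93 bp upstream, F39B2.14, which overlaps an exon, had 234 (91.4 and 152) at 119 bp upstream and 58 bp from the 5′ end of tmem-107. M7.15 had 228 (102 and 129) at 121 bp upstream and W06H8.17 had 214 (119 and 96.0) at 208 bp upstream. The weakest, H04D03.5, had a signal of 49.0, with 20.03 in replicate 1 and 29.6 in replicate 2.

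Among snRNA families of 3 or more genes the SL2 family had the highest share, but its interval overlaps those of most others. Grouped by sequence, the family of 19 genes around sls-2.1, which holds the 18 named sls-2 genes that encode the SL2 spliced leader, had a peak at 9 genes (47.4%, interval 24.5 to 71.1%). The SL2 leader is spliced to downstream genes of operons. All of sls-2.1 to sls-2.4 had one, and they held 7 peaks between them, while 5 of the other 14 sls-2 genes did, through 4 peaks. Among those 4 was a summit shared by neighbouring genes, 49 bp upstream of the nearer and 438 bp upstream of the farther. The share of the family and its interval count such genes separately. The 13 genes around the U1 genes sup-39 and sup-6 had 2 (15.4%), the 24-gene family of W05B2.8 had 3 (12.5%), the 12-gene family of F38E11.10 had 2 (16.7%), and the 5-gene family of C52E4.8 had 1 (20%). The 19-gene family around C05G6.4 had none, which by the exact interval allows a share of up to 17.7%, and neither did the 6 genes around smy-11 nor the 10 sls-1 genes of the family around sls-1.10, which encode the SL1 spliced leader. The interval of the SL2 family lies above that of the C05G6.4 family. It overlaps the intervals of all the other families listed here, so these counts do not separate it from them. The families other than the sls, smy and U1 genes carry no name in the annotation used here.

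Repeated sequence differed between these families. The median share of unique 36-base words around the 5′ end was 88.8% in the sls-2 family, 53.4% in the C05G6.4 family and 0% in the sls-1.10 family, where not even an unfiltered pooled call lay near any gene. Over all snRNA genes it was 87.3% for the 19 with a peak and 77.0% for the 110 without, and it was under 50% for none of those with a peak and for 23 of those without. The part of repeated sequence in the snRNA shares was not tested.

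The strongest snRNA peak lay 59 bp upstream of sls-2.4 and had a signal of 443 (223 in replicate 1, 216 in replicate 2), rank 20 of all peaks. The summit at sls-2.1 was also 59 bp upstream, with a signal of 331 (167 and 154 in replicates 1 and 2), and that at sls-2.8 was 57 bp upstream with 255 (110 and 148). At sls-2.2 the summit was 11 bp inside the gene with 283 (152 and 131). C52E4.8 had 240 (118 and 110) at 62 bp upstream, a summit that was 333 bp from the 5′ end of snr-4, which encodes a core Sm protein of snRNPs. W05B2.8 had 227 (95.4 and 121) at 52 bp upstream and F38E11.10 had 207 (107 and 97.1) at 42 bp upstream. The U1 gene sup-6 had 168 (83.4 and 81.8) with the summit 12 bp inside the gene, and sup-39 had 162 (76.6 and 83.8) at 37 bp upstream. That last peak also counts for mir-1831, an annotated snRNA-class gene of 22 bases within sup-39.

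A few snRNA genes had 2 peaks. At 5 of the 19 genes with a peak, sls-2.1, sls-2.2, sls-2.4, C52E4.8 and F38E11.10, a second reproducible summit lay 201 to 220 bp downstream of the first, past the 3′ end of a gene of 110 to 144 bp. The second peak was weaker in every case. Its signal was 111 at sls-2.1, against 331 for the first, 109 at sls-2.4, against 443, and 54.1 at sls-2.2, against 283. At C52E4.8 it was 52.9, against 240, and at F38E11.10 51.4, against 207. These last 2 second peaks rest mainly on replicate 1. That at F38E11.10 had 38.6 in replicate 1 and no call within 100 bp in replicate 2. That at C52E4.8 had 26.9 in replicate 1 and 18.5 in replicate 2, at rank 3927 there. Without replicate 1 each of these genes had 1 peak. The second peaks at sls-2.1, sls-2.2 and sls-2.4 were called in both replicates. These pairs account for 10 of the 22 snRNA peaks (45.5%), against 42 of all 2333 peaks (1.80%) with another summit within 260 bp, and none of the tRNA or snoRNA peaks had one. No pair of summits in the whole list lay closer than 200 bp, and the part of the caller's spacing in these pairs was not tested.

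**Figure D5:**
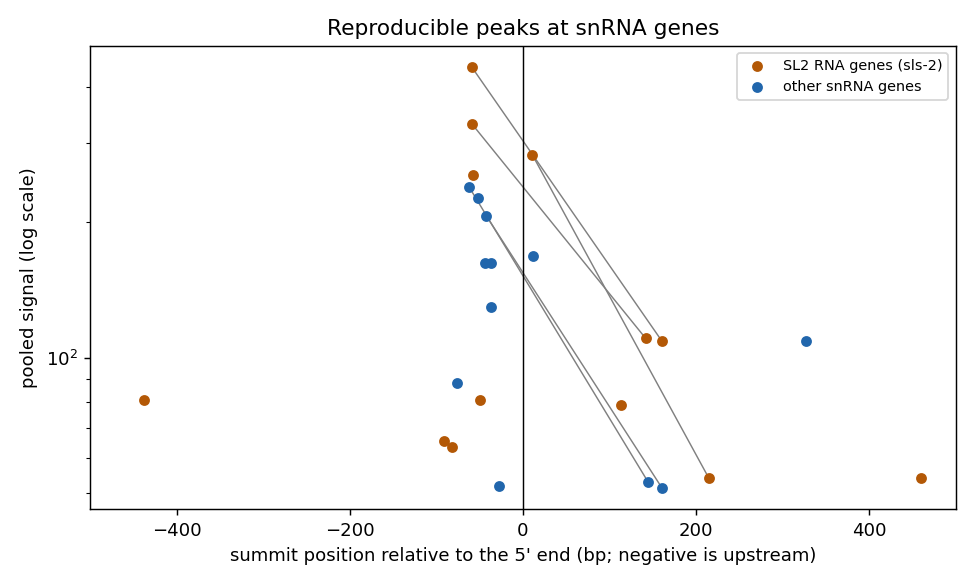
Pooled signal (y axis, log scale) against the summit's position relative to the 5′ end (x axis, bp, negative upstream) for each pair of an snRNA gene and a reproducible peak, with sls-2 genes in orange and other snRNA genes in blue. Grey lines join 2 peaks of 1 gene no more than 260 bp apart; the 2 strongest points lie 59 bp upstream and their partners past the 3′ end.

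The word AACCCG stood before a larger share of snoRNA genes with a peak than without, and the same comparison in snRNA genes was within counting error. It was searched on both strands between 100 and 30 bases upstream of each 5′ end. It occurred before 13 of 78 snoRNA genes with a peak (16.7%) and 14 of 268 without (5.22%), and before 10 of 19 snRNA genes with a peak (52.6%) and 33 of 110 without (30%). The word and the peak of sup-39 count a second time for mir-1831, which lies within it, in all snRNA shares of this comparison. Before tRNA genes it occurred at 0 of 139 with a peak and 5 of 473 without (1.06%), and before protein-coding 5′ ends at 360 of 29773 (1.21%). Read the other way, 13 of 27 snoRNA genes with the word had a peak (48.1%, interval 28.7 to 68.1%), against 65 of 319 without it (20.4%, 16.1 to 25.2%). For snRNA genes the shares were 10 of 43 with the word (23.3%, 11.8 to 38.6%), against 9 of 86 without it (10.5%, 4.90 to 18.9%). The snoRNA intervals do not overlap and the snRNA intervals do. Among the few snoRNA genes in introns of the opposite strand the order was turned, with the word before 1 of 9 genes with a peak (11.1%) and 3 of 19 without (15.8%). Because the word was picked after sequences of genes with a peak had been read, these shares are a description.

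Summit and word lay at various distances. The summits of C16D9.11 (signal 113) and W04D2.7 (112) lay 59 bp upstream, next to the word at 58 bp. At sup-6 the word began 56 bp upstream and the summit was 12 bp inside the gene. At the 8 strongest snRNA peaks the searched stretch held the word for 3 genes, sls-2.8, F38E11.10 and sup-6, and not for 5, sls-2.4, sls-2.1, sls-2.2, C52E4.8 and W05B2.8. Of the 14 sls-2 genes other than sls-2.1 to sls-2.4, 10 have the word and 5 had a peak.

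The B box core did not separate tRNA genes with a peak from those without. GTTCNA, searched on both strands, occurred in 136 of 139 tRNA genes with a peak (97.8%) and in 452 of 473 without (95.6%), against 14.9% of protein-coding genes' first 72 bases. In the 201 bp centred on the summit it occurred at 88.2% of tRNA peaks, 34.2% of snoRNA peaks and 45.5% of snRNA peaks, against 25.5% of other peaks. The tRNA value follows largely from the rule for members, since 92.4% of tRNA summits lay within 100 bp of the 5′ end of a tRNA gene. AACCCG occurred in the same window at 25.2% of tRNA peaks, 27.6% of snoRNA peaks and 36.4% of snRNA peaks, against 4.25% of other peaks. The words can overlap. The last base of a B box core can be the first of AACCCG, which was so at 3 of the 30 tRNA windows that held AACCCG. Read on the other strand, AACCCG is CGGGTT, which can share the letters GTT with a core, and that overlap was not counted. How many of the 30 windows hold AACCCG apart from a B box core is therefore not known.

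The limit of 500 bp mattered most for snoRNA genes. With limits of 250, 500 and 1000 bp a peak lay near 65, 78 and 105 snoRNA genes, near 125, 139 and 155 tRNA genes and near 17, 19 and 19 snRNA genes, and 198, 214 and 244 peaks were members. The member farthest from a 5′ end was a peak 498 bp downstream of C16D9.t4 (signal 94.4), which was also 18 bp upstream of the snoRNA gene C16D9.10 and thus a member by that gene as well. The nearest peak beyond the limit lay 502 bp upstream of the snoRNA gene Y37E3.21 (116). The peaks of rank 2 and rank 5 in the whole list fell just beyond it, 520 bp upstream of the snoRNA gene C06A1.9 (806) and 563 bp upstream of the snoRNA gene K11H12.13 (624). In all, 7 summits lay between 400 and 500 bp away, a count that includes the C16D9.t4 peak, and 8 between 500 and 600 bp. The shared peak of a snoRNA and an snRNA gene was that of smy-2 and smy-1, where the summit was 46 bp upstream of smy-2 and 327 bp downstream of smy-1's 5′ end, and the peak shared by M01E5.t1 and sls-2.9 lay 41 bp upstream of the tRNA gene and 91 bp upstream of the SL2 gene.

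Protein-coding genes whose products make or mature these RNAs had peaks in unequal shares. Of 17 genes for RNA polymerase III, its factors and the SNAP complex, 5 had a reproducible peak (29.4%), namely snpc-3.4 (signal 75.6) and snpc-4 (56.8) of the SNAP complex, tftc-1 (65.1) of TFIIIC, the polymerase subunit gene rpac-19 (86.7) and mafr-1 (58.7), which encodes the polymerase III repressor Maf1. Of 10 genes for snoRNP and nucleolar proteins 6 had one (60%), led by fib-1, which encodes fibrillarin (183), nol-58 (156) and nol-56 (143). Of 10 Integrator genes, whose products cleave the 3′ ends of snRNAs, 7 had one (70%), led by ints-4 (398, with 194 in replicate 1 and 201 in replicate 2). Of 11 genes for tRNA processing and modification 1 had one (9.09%), trm-1 (71.01), and its peak is the same as that of ints-2. All protein-coding genes together had 8.63%. The nol-56 peak is the same as the K07C5.11 snoRNA peak. The lists are short, and nothing particular to a list is drawn from these shares.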

How the data were processed

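ChIP-seq of tagged LIN-13 was measured in 2 biological replicates of L1 larvae, selected for fragments of 150 to 350 bp per the labels. The deposited lists are narrow peak calls on ce11: 1 reproducible list, 1 pooled list of 30000 calls and 1 list of 30000 calls per replicate. Each call carries the authors' signal, a score per peak of unstated scale, and a deposited −log10 q-value that was not used further. Caller, aligner, threshold and depth: not given in the sources used here. No input control was analysed here. Peaks listed on ce10 were not used.

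Gene 5′ ends came from Ensembl release 115 (WBcel235). Names and tRNA amino acids came from RefSeq by WormBase ID, which matched all 612 tRNA, 346 snoRNA and 129 snRNA genes; an amino acid was named for 607. Offsets were signed by gene strand to the nearest gene of the class. A replicate call matched a peak within 100 bp. snRNA families joined genes differing by at most 25% of their length in edit distance. Python 3.11.15, pandas 2.3.3, numpy 2.4.6, scipy 1.17.1 and edlib were used, and the peak-to-gene search was tested on simulated data. With 1 group no test between conditions was possible.

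The members and gene lists were chosen with earlier results of these data known. Named genes were, per class, the nearest gene at the 8 strongest peaks and at the weakest, the peaks just inside and outside 500 bp, and the listed protein-coding genes with a peak. K11H12.t1, C43G2.t1, R04D3.t2, C16D9.11, W04D2.7, K07C5.11, sup-39, mir-1831, smy-1, smy-2, C16D9.10, M01E5.t1, C06A1.9, K11H12.13, sls-2.3, sls-2.9, sls-2.12 and the C05G6.4, smy-11 and sls-1.10 families were named after their values were seen. In the gene lists snpc-1.5, nol-1, nol-2, nol-5, nols-1, dic-1, ints-10, ints-12, adat-1 and adat-2 matched no name.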

Additional observations from a re-analysis of the deposited data

How the results depend on the processing

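No paired analysis was possible because there was 1 group of samples. Under 8 alternatives the class medians kept their sign in every case, with tRNA summits downstream and snoRNA and snRNA summits upstream. Keeping the stronger 50% of the reproducible peaks left 100 member peaks of 214 and 40 tRNA genes of 139, while 56 of 78 snoRNA and 15 of 19 snRNA genes had one. Leaving out peaks near protein-coding 5′ ends left 45 snoRNA genes with a peak. With 1 replicate's 2333 strongest calls in place of the reproducible list, member peaks numbered 179 to 217, tRNA genes 101 to 140, snoRNA genes 75 to 80 and snRNA genes 20 in both. The lower counts came without replicate 2, as did the smaller tRNA median of 4 bp, against 24 bp without replicate 1. The snRNA median was −47 to −32 bp and the snoRNA median −50 bp in both. The snoRNA median of −59 bp was −49.5 bp within 250 bp, −66 bp within 1000 bp, −50 bp with the nearest 5′ end of any gene only, −54 bp without peaks near protein-coding 5′ ends and −46 bp for peak intervals overlapping the gene. The median percentile of member peaks, 54.7% in the reported setting, was 55.4% within 250 bp, 50.8% within 1000 bp, 58.9% in the stronger 50%, 56.5% with the nearest 5′ end only, 59.1% without peaks near protein-coding 5′ ends, 57.8% for overlapping intervals and 50.1 to 50.2% without a replicate. The cause was not tested. Of 37 named genes 12 had no peak without peaks near protein-coding 5′ ends, 11 by overlapping intervals, 9 with the nearest 5′ end only, 6 in the stronger 50%, 5 within 250 bp and 0 within 1000 bp. F22B7.t5, H04D03.5 and sls-2.9 had no peak without replicate 2, and R07E5.16 had none without replicate 1. The alternatives for amino acids, percentile and named genes were chosen after seeing the data. The deposited lists do not give depth, so weaker sites cannot be bounded.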
